A study of Mus musculus with 6 samples.

Results

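Immune cells with high Ear2 transcript counts were examined in the E18.5 mouse lung. The cells, called Ear2 cells below, were taken from 2 droplet libraries of whole lung after the mitochondrial share (0.5% to 10%) and the number of detected genes (at least 700) had been checked. On counts adjusted for free RNA with SoupX, a cell needed at least 3 Ear2 transcripts and at least 2 of Tyrobp and Fcer1g together, which encode signalling adaptors of myeloid cells. It also needed fewer than 5 transcripts of the complement genes C1qa, C1qb and C1qc, no Pecam1 or Cdh5 (endothelium), no Epcam (epithelium) and at most 2 of Col1a1 (mesenchyme). This gave 1017 cells, 532 and 485 in the 2 libraries, of 16515 whole-lung cells kept and of 63659 barcodes in the 6 libraries of the series. The levels of the genes named in this gate are therefore no finding. Ear2 and Ccr2 place such cells with monocytes, whereas Ear2 and Ear1 are also genes of alveolar macrophages, and both identities were examined with genes outside the gate. Of these, Ear1 is a close relative of Ear2 and shares part of its transcript sequence, so its level may partly follow the gate. The cells held many classical monocyte transcripts together with several genes of the alveolar macrophage programme, and they nearly lacked Siglecf and Car4, which mark mature alveolar macrophages, so neither name alone is used for them.

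The study asked how CXCL12, a chemokine that attracts cells carrying CXCR4 or ACKR3, acts in lung vascular growth, and it sequenced 4 sorted libraries of reporter cells and the 2 whole-lung libraries used here. Both whole-lung groups carried a DsRed reporter knocked into the Cxcl12 gene, and the embryos were collected at E18.5. The labels give Cxcl12DsRed/DsRed for the homozygous null, with no intact Cxcl12 copy, and Cxcl12DsRed/+ for the heterozygous control, with 1 intact copy. The study's text names a pair of lungs per genotype for this comparison, and embryos cannot be told apart within a library. With 1 library per genotype there is no replicate, no test is given, and every interval covers counting error only.

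The 2 libraries went against their labels at the targeted gene. Cxcl12 reached 190.6 CPM (transcripts, counted as unique molecular identifiers or UMIs, per 1000000 of the population) over all kept cells of the library labelled null, from 19230 UMIs. It reached 1.27 CPM over those of the library labelled control, from 96 UMIs, and the names of the deposited data also give the opposite genotypes. Within the Ear2 cells there were 32 Cxcl12 UMIs (3.54 CPM) in the library labelled null and 0 in the library labelled control, where a count of 0 allows up to 0.364 CPM (3 counts, the limit used for every count of 0). The groups are therefore written as the library labelled null and the library labelled control, and no direction between them is tied to a genotype. Xist, transcribed in female cells, was at 285.0 and 0 CPM in the Ear2 cells of the libraries labelled null and control, and Ddx3y, on the Y chromosome, at 44.9 and 72.9 CPM, so the sex make-up of the libraries differed as well. The labels repeat for these libraries a sort that discards CD45-positive cells, yet Ptprc, which encodes CD45, stood at 50.9 and 64.6 CPM over all barcodes kept on unadjusted counts against 0.0589 to 0.940 CPM in the 4 sorted libraries. No barcode was shared by Ear2 cells of both libraries, while 140 barcodes were shared among all cells.

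Monocytes arise in the fetal liver and bone marrow and enter tissues through CCR2, the receptor of the chemokine CCL2. In the lung, fetal monocytes that reach the airspaces around birth turn into alveolar macrophages under GM-CSF and TGF-beta, which switch on the nuclear receptor PPARG, while interstitial macrophages settle in the tissue earlier and carry complement, Mrc1 and Apoe transcripts. Ear genes encode small secreted ribonucleases of the RNase A family, named from eosinophils but also transcribed in lung macrophages and some monocytes. Mature alveolar macrophages clear surfactant lipid and carry SIGLECF, MARCO and high CD11c.

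Ear2 is 1 of a cluster of near-copies on chromosome 14. Its gene lies at chr14:44102654-44103534 on the plus strand (GENCODE M21, GRCm38), Ear1 at chr14:43818765-43875517 and Ear10 at chr14:43922720-43923559, both on the minus strand. Ear2, Ear1, Ear10, Ear6 and Rnase2b were chosen to show how alike members with many, few or no UMIs in the Ear2 cells are. Their 300 bases around the start site (250 before it and 50 after it) were taken from RefSeq, build GRCm38.p6. They are given 5′ to 3′ on the strand of the gene, with matches to the C/EBP motif letters TTGCNNAA (searched on both strands) in capitals. The windows are chr14:44102404-44102703 for Ear2, chr14:43819590-43819889 for Ear1, chr14:43923547-43923846 for Ear10, chr14:51853518-51853817 for Ear6 and chr14:51162010-51162309 for Rnase2b. The Ear1 window lies inside the GENCODE span given above and not at its upstream end, so the RefSeq start of Ear1 differs from the start of that span.
Ear2: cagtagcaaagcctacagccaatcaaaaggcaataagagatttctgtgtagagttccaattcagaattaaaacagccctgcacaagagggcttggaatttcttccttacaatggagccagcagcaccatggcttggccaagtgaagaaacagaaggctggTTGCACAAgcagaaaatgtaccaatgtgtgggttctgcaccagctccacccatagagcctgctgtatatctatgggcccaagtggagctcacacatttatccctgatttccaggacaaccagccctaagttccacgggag
Ear1: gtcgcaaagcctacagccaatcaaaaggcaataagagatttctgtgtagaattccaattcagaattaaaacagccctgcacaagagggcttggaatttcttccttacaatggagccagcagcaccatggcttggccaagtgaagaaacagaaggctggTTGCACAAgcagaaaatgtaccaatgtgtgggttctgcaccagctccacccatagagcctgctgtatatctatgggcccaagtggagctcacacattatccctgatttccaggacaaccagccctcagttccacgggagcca
Ear10: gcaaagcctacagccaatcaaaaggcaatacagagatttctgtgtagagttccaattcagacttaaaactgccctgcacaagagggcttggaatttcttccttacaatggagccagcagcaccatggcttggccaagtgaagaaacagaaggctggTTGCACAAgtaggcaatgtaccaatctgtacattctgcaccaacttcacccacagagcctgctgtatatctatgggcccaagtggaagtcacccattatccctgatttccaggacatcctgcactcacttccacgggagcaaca
Ear6: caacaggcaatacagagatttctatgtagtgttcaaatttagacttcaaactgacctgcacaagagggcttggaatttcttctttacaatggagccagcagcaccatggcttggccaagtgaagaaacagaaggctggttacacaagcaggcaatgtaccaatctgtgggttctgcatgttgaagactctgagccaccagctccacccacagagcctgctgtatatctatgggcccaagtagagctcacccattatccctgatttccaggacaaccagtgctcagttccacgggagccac
Rnase2b: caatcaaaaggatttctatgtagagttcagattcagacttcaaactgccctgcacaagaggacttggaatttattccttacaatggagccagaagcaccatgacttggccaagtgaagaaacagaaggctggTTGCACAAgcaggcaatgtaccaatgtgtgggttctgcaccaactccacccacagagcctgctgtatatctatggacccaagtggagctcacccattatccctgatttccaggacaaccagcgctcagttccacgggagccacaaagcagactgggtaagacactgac
The window of Ear1 was identical to that of Ear2 at 294 of 298 aligned bases (98.7%), that of Ear10 at 274 of 296 (92.6%), that of Rnase2b at 250 of 272 (91.9%) and that of Ear6 at 256 of 297 (86.2%). The C/EBP letters began 90, 92 and 94 bases before the start of Ear2, Ear1 and Ear10 and 118 bases before that of Rnase2b, and they were not in the Ear6 window. Of the windows not shown, that of Rnase2a held them 217 bases before the start and that of Ear14 did not hold them. A match to these letters was found in 10.8% of 32817 mouse promoter windows of this length, so it is a description and not a bound site. Letters of the PU.1, AP-1 and TATA box motifs were searched as well and had no match in the windows shown. Rnase2a had a match to those of PU.1.

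Ear1 and Ear10 followed Ear2 in these cells, and the other near-copies did not. Ear2, used by the gate, stood at 1114 CPM in the library labelled null and 955 CPM in the library labelled control. Ear1, which the gate did not use, stood at 826 and 778 CPM (in this order of libraries throughout), and Ear10 at 99.5 and 60.6 CPM. The interstitial macrophages of the same lungs, gated on at least 5 C1q transcripts with Ear2 below 3 (170 and 186 cells), held 3.30 and 4.28 CPM of Ear1 and 0.330 and 0 CPM of Ear10. Ear6 (1.88 and 1.58 CPM) and Rnase2a (4.20 and 2.43 CPM) were scarce, and Ear14 and Rnase2b gave no UMI in either library. Of the more distant RNase A genes, Rnase4 was lower in the Ear2 cells (38.7 and 47.2 CPM) than in interstitial macrophages (552 and 429.7 CPM), and Rnase6 stood at 15.5 and 17.3 CPM. The last 300 bases of the transcripts, where 3′ tags fall, are not all distinct: 72.6% of the 60-base words of Ear2, 52.7% of those of Ear1 and 65.9% of those of Ear10 occur in no other gene. The split of UMIs among Ear2, Ear1, Ear10 and the pseudogenes Ear-ps2 and Ear-ps9 is therefore uncertain, while the words of Ear6, Ear14, Rnase2a and Rnase2b were all unique.

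**Figure D1:**
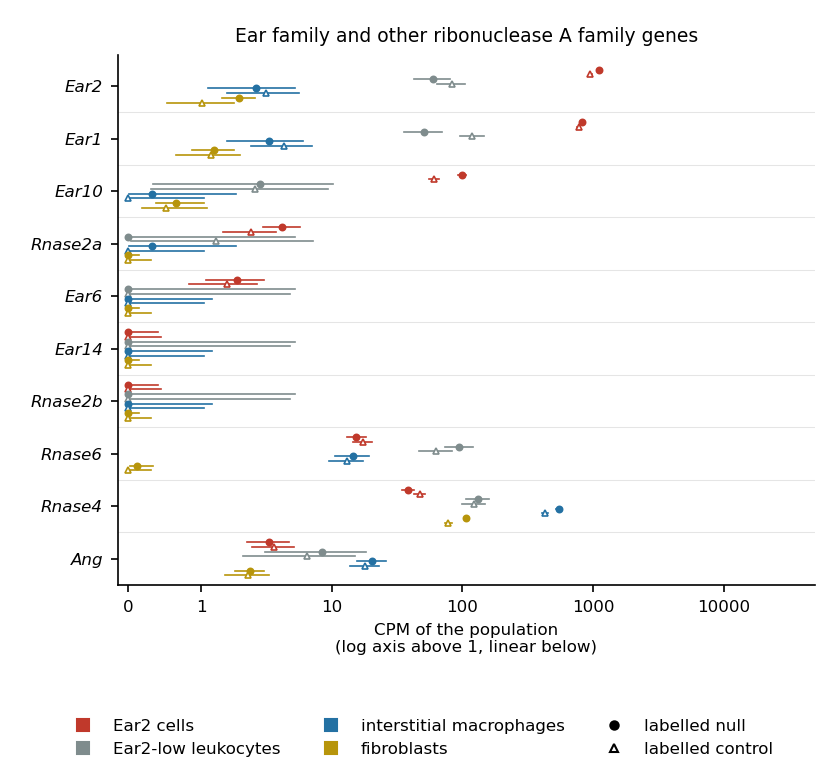
Level of 10 Ear and RNase A family genes (horizontal axis, CPM of the population, logarithmic above 1) in the Ear2 cells, the Ear2-low leukocytes, the interstitial macrophages and the fibroblasts of each library, with exact Poisson 95% intervals. In both libraries Ear1 and Ear10 are higher in the Ear2 cells than in the other 3 populations, and Ear14 and Rnase2b lie at 0 in all 4. Ear2 was used to choose the cells.

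The Ear2 threshold cut through a continuous range. The adjusted Ear2 count of the members ran from 3.63 to 77.6 with a median of 16.8 in the library labelled null, and from 3.13 to 79.3 with a median of 14.4 in the library labelled control. The 14 and 10 members with 3 to under 4 transcripts held 263 and 267 CPM of Ear1 and 619 and 682 CPM of Ccr2. The 9 and 14 cells with 2 to under 3, which met the rest of the gate, held 256 and 187 CPM of Ear1 and 462 and 733 CPM of Ccr2. The cells on both sides of the threshold thus held both transcripts. Ear1 fell further with Ear2, to 86.3 and 153 CPM in cells with Ear2 above 0 to under 2, and to 16.2 and 46.9 CPM at 0. Ccr2 stood at 818 and 623 CPM and at 551 and 652 CPM in these cells. Leukocytes with a Ptprc transcript that met the same limits with Ear2 below 3 (50 and 48 cells) were kept as the Ear2-low leukocytes for comparison.

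The Ear2 cells held classical monocyte transcripts at levels far above those of interstitial macrophages. Ccr2 (chr9:124101950-124113557) stood at 573 and 487 CPM against 80.8 and 40.8 CPM in interstitial macrophages, a log2 ratio of 2.82 and 3.56. Ly6c2, which encodes the Ly6C surface protein of inflammatory monocytes, stood at 101 and 92.8 CPM against 4.94 and 1.14 CPM. Both libraries showed the same order, with the Ear2 cells above the macrophages. Hp (haptoglobin) reached 159 and 239 CPM, Mgst1 (a glutathione transferase) 164 and 193 CPM and Fn1 (fibronectin) 1798 and 1630.0 CPM. Fn1 is also abundant in fibroblasts (1556 and 2747 CPM). Called higher or lower here means at least 2-fold in the same direction in both libraries, among genes with at least 50 CPM in 1 of the populations compared in each library. Against interstitial macrophages, 364 of 3349 genes that passed this minimum were higher in the Ear2 cells (10.9%) and 365 were lower (10.9%). Of the 10 classical monocyte genes, 6 passed the minimum, 5 of them higher and 1 lower, with a median log2 ratio of 2.36 and 2.70 beside 0.09 and 0.05 over all genes that passed. Since genes can pass through the Ear2 cells alone, these counts describe the list and support nothing further. The lower gene was F13a1, a subunit of coagulation factor XIII, at 365 and 475 CPM against 1232 and 1062 CPM.

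Other classical genes were sparse. Plac8 stood at 13.2 and 23.5 CPM, Ms4a4c at 8.73 and 16.4 CPM and Vcan (versican) at 21.2 and 26.4 CPM. The Ear2-low leukocytes had more of each, with Plac8 at 781 and 155 CPM and Ly6c2 at 182 and 139 CPM, while their Ccr2 level (668 and 659 CPM) was near that of the Ear2 cells. Against the Ear2-low leukocytes, 61 of 2976 genes were higher in the Ear2 cells (2.05%) and 70 lower (2.35%), and of the 8 classical genes that passed none was higher and 2 were lower. Genes of nonclassical monocytes, which patrol vessels, gave a divided picture. Itgal, an integrin chain, was higher than in interstitial macrophages (202 and 209.5 against 32.0 and 21.4 CPM), and Cx3cr1, the fractalkine receptor, was lower (46.1 and 78.6 against 859 and 787 CPM). Nr4a1, the transcription factor that nonclassical monocytes need, stood at 188 and 178 CPM and Pou2f2 at 88.9 and 132 CPM, both within 2-fold of the macrophages. Treml4 stood at 29.9 and 32.3 CPM. Spn (13.2 and 6.67 CPM), Dusp16 (23.2 and 14.8 CPM), Adgre4, Eno3 and Cd300e (0.728 to 7.52 CPM) were low, and the 17.2 and 5.70 CPM of Ace fell to 0 with SoupX.

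**Figure D2:**
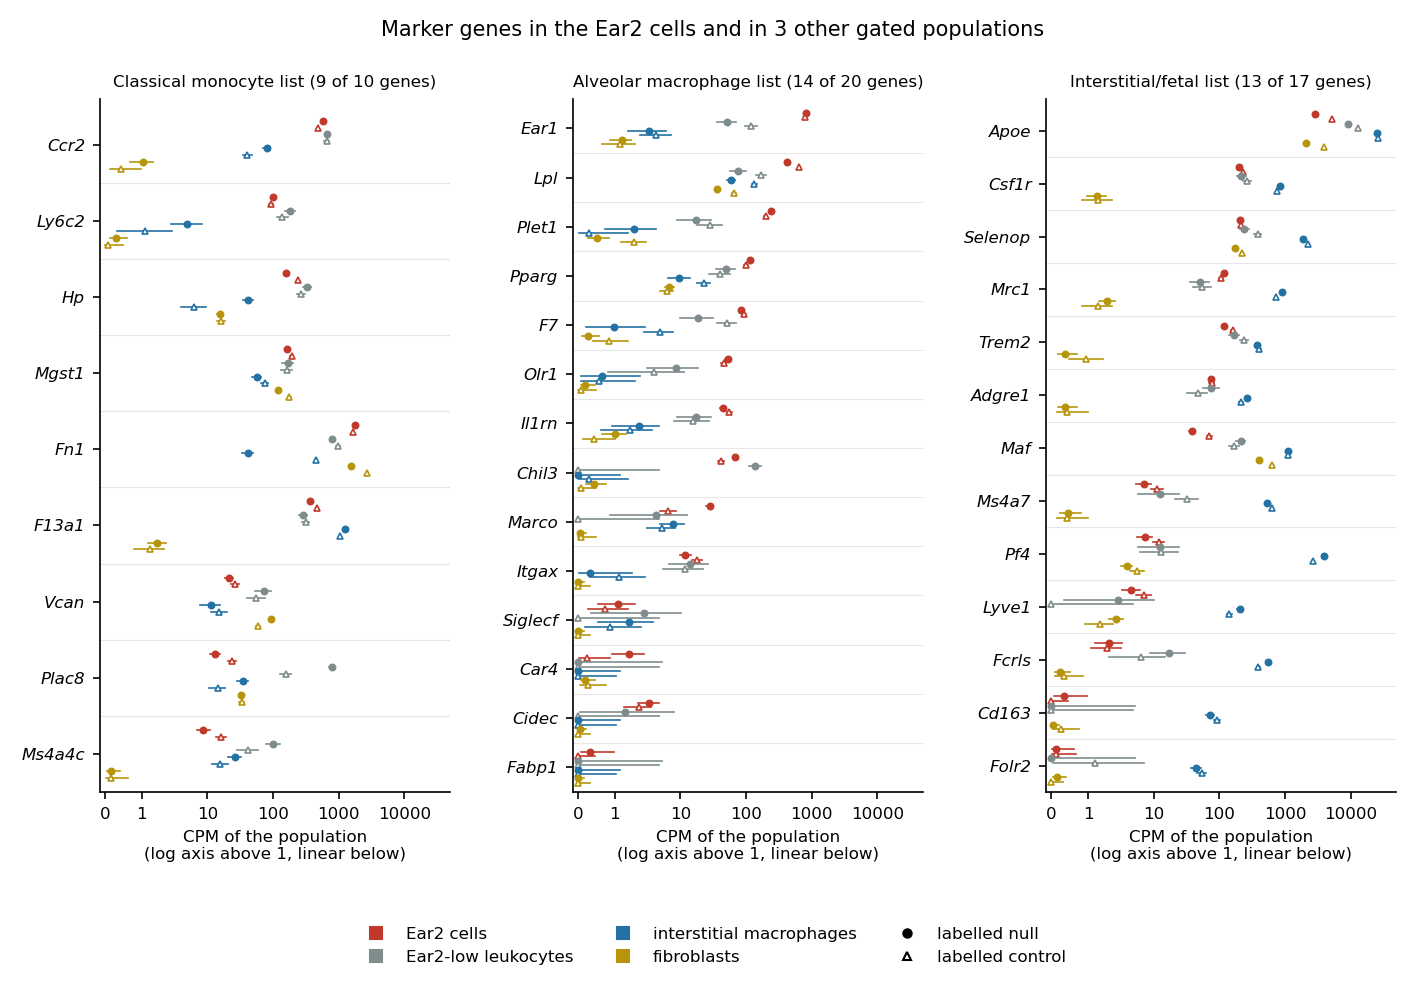
Level (CPM of the population, logarithmic above 1, with exact Poisson 95% intervals) of 9 of the 10 classical monocyte genes, of 14 of the 20 alveolar macrophage genes and of 13 of the 17 interstitial and fetal macrophage genes in 4 populations of each library. The Ear2 cells lie above the interstitial macrophages at Ccr2 and at Ear1, Lpl, Plet1 and Pparg, below them at each of the 13 interstitial genes drawn, and near 0 at Siglecf and Car4.

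Part of the alveolar macrophage programme was present. Pparg (chr6:115360951-115490399), the lipid-sensing nuclear receptor that alveolar macrophages need to mature, stood at 113 and 99.3 CPM against 9.56 and 22.6 CPM in interstitial macrophages and 49.5 and 40.1 CPM in the Ear2-low leukocytes. Lpl (lipoprotein lipase, chr8:68880491-68907448) stood at 416 and 628 CPM against 59.0 and 133 CPM and 74.9 and 167 CPM in these 2 populations. Plet1, a surface protein of alveolar macrophages and epithelial progenitors (chr9:50494525-50505482), reached 239 and 198 CPM against 1.98 and 0.286 CPM and 17 and 28.5 CPM. At all 3 genes the Ear2 cells were the highest of these 3 leukocyte populations in each library. F7 (coagulation factor VII) at 83.9 and 92.4 CPM, Olr1 (a receptor for oxidised lipoprotein) at 52.4 and 45.2 CPM and Il1rn (the antagonist of the interleukin 1 receptor) at 44.2 and 55.2 CPM followed the same order. Of the 20 alveolar genes, 5 passed the minimum against interstitial macrophages and all 5 were higher (10.9% of all genes), 4 of 5 were higher against the Ear2-low leukocytes (2.05% of all genes), and 10 of the 20 held at least 10 CPM in the Ear2 cells of both libraries. Here too a gene can pass through the Ear2 cells alone, so the counts are a description. Ear1 is among the genes called higher in both comparisons. Both reference populations were gated on Ear2 below 3, and Ear1 shares transcript sequence with Ear2, so its calls may partly follow the gate.

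The genes that mark mature alveolar macrophages were scarce. Siglecf gave 10 and 6 UMIs (1.11 and 0.728 CPM), Car4 (carbonic anhydrase 4) 1.66 and 0.243 CPM, and Fabp1, Krt79, Atp6v0d2 and Slc39a2 stood at or under 0.553 CPM in each library. Itgax, which encodes CD11c, stood at 11.8 and 17.8 CPM, Bhlhe41 at 5.97 and 18.9 CPM, Cidec at 3.32 and 2.30 CPM and Ctsk at 1.33 and 2.67 CPM. Chil3, a chitinase-like protein, reached 67.4 and 41.7 CPM but was found in only 21 and 14 cells, with 3 and 2 cells holding 50% of its UMIs. Marco, a scavenger receptor, reached 28.1 and 6.55 CPM from 22 and 13 cells. The 20.0 and 48.9 CPM of Fabp4 were no higher than those of fibroblasts (65.7 and 67.6 CPM) and fell to 0 with SoupX. Its UMIs were not spread evenly, since Fabp4 was among the 10 leading genes of sub-cluster 2 described below. The part of free RNA in the Fabp4 values was not tested. The receptor of GM-CSF was present, with Csf2rb at 278 and 284 CPM against 104 and 83.1 CPM in interstitial macrophages and Csf2ra at 171 and 197 against 101 and 95.9 CPM. Of the 9 genes of GM-CSF and TGF-beta reception, 4 passed the minimum and 1 (Csf2rb) was higher, beside 10.9% of all genes. This count is a description and no result about the list. Tgfbr1 stood at 125 and 154 CPM and Tgfbr2 at 59.5 and 63.2 CPM, and the GM-CSF target Cish at 21.9 and 17.3 CPM, each within 2-fold of the macrophages in at least 1 library.

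Genes of interstitial and fetal macrophages were lower in the Ear2 cells. All 15 of the 17 genes on this list that passed the minimum were lower than in interstitial macrophages, with a median log2 ratio of -4.80 and -3.36. Over all genes that passed, 10.9% were lower and the median was 0.09 and 0.05. The macrophages were themselves gated on C1q transcripts and a gene could pass through them alone, so the count of 15 too is a description. Csf1r, the receptor of CSF1 on which macrophages depend, stood at 201 and 229 CPM against 829 and 754 CPM. Mrc1, the mannose receptor, stood at 118 and 107 CPM against 892 and 738 CPM, and Adgre1, which encodes F4/80, at 76.0 and 76.8 against 264 and 216 CPM. The macrophage transcription factor Maf (38.1 and 70.3 against 1133 and 1096 CPM) showed the same order. These 4 genes were low but not at 0, whereas Cd163 (0.332 and 0 CPM), Folr2 (0.111 and 0.121 CPM) and Timd4 (0 UMIs in both libraries) were at or under the level that a count of 0 allows (0.332 and 0.364 CPM). Trem2 stood at 118 and 161 CPM and Selenop at 204 and 215 CPM. Apoe, a lipid carrier, was at 2881 and 5262 CPM against 24833 and 26384 CPM, and fibroblasts, which are not macrophages, held 2092 and 3883 CPM. The part of free RNA in the Apoe values was not tested.

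Most markers of other leukocytes were at or near 0, but S100a8, Mmp8, Csf3r and Cd79b were not. The neutrophil and monocyte alarmin S100a8 (chr3:90668978-90670035) reached 1572 and 2072 CPM in the Ear2 cells and 1419 and 1055 CPM in the Ear2-low leukocytes, against 9.89 and 6.0 CPM in interstitial macrophages and 2.57 and 4.42 CPM in fibroblasts. Its dimer partner S100a9 stood at only 30.1 and 55.4 CPM, with 254 of 272 and 309 of 457 UMIs in a single cell of each library. Mmp8, a collagenase of neutrophil granules (79.2 and 71.2 CPM), and Csf3r, the receptor of G-CSF (48.1 and 82.3 CPM), were present, while Ly6g (0 in both), Retnlg (0 and 0.121), Camp (0.884 and 0.243), Ltf (0.553 and 0.728) and Ngp (0.111 and 0) were at or under 0.884 CPM. The cells thus held part of the neutrophil list and nearly lacked these other members. The eosinophil list summed to 3.20 and 2.30 CPM, with no UMI of Epx or Prg3, although Ear genes are named after eosinophils. The basophil and mast cell list summed to 2.21 and 3.40 CPM and the megakaryocyte and platelet list to 1.33 and 1.33 CPM. Of the granulocyte and monocyte progenitor list, which summed to 23.2 and 17.7 CPM, Mpo and Elane were at 0 in 1 library and at or under 0.485 CPM in the other, and Fcnb (ficolin B) stood at 10.2 and 9.70 CPM. The dendritic cell list summed to 24.1 and 27.6 CPM. Of the lymphoid list (62.2 and 64.5 CPM), Cd79b gave 48.5 and 61.2 CPM, and 1 cell held all 62 UMIs of Gzma.

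Summed class II transcripts were lower in the Ear2 cells than in the Ear2-low leukocytes. Cd74, the class II chaperone, stood at 135 and 135 CPM against 3002 and 2280.2 CPM, and H2-Aa, a class II chain, at 13.8 and 10.3 against 1084 and 459.7 CPM. Of 6 class II genes that passed, 5 were lower than in the Ear2-low leukocytes, beside 2.35% of all genes, and such genes could pass through the Ear2-low leukocytes alone. The exception was H2-DMa at 273 and 327 CPM. Without thinning, an H2-Aa UMI was found in 6 of 532 and 6 of 485 Ear2 cells and in 7 of 50 and 10 of 48 Ear2-low leukocytes, so a minority of the latter carried the summed level and most cells of both populations had no H2-Aa UMI.

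Myeloid regulators and receptors differed from those of interstitial macrophages in both directions, and the most abundant members are named. Cebpb, a transcription factor of the C/EBP family, stood at 2422 and 2331 CPM against 999 and 919 CPM in interstitial macrophages, and Klf4, a monocyte factor, at 273 and 243 against 80.4 and 75.1 CPM. Spi1, which encodes PU.1, stood at 462 and 459 CPM, Irf8 at 217 and 209.7 CPM and Zeb2 at 621 and 715 CPM, each within 2-fold of the macrophages. Of the 14 factors that passed, 4 were higher and 3 lower. These and the counts that follow stand beside 10.9% higher and 10.9% lower over all genes, and a gene could pass through 1 of the populations alone, so they are descriptions. The lysosomal list was led by Lyz2 (lysozyme, 11068 and 15006 CPM) and Lgals3 (galectin 3, 2358 and 2420.4 against 329 and 316 CPM). Of the lipid genes, the cholesterol exporter Abcg1 was higher (366 and 329.8 against 33.0 and 44.5 CPM) and its relative Abca1 lower (31.3 and 41.5 against 219 and 292 CPM). Among adhesion genes 6 of 8 were higher, including Cd44, a hyaluronan receptor (527 and 481 against 72.2 and 76.5 CPM), and the tetraspanin Cd9 (674 and 669.7 against 85.4 and 121 CPM). Inflammatory cytokines differed by member: the interleukin 6 family cytokine Osm (264 and 243 against 82.7 and 48 CPM) and the chemokine Ccl9 (230.1 and 251 against 70.5 and 81.4 CPM) were higher, and Cxcl2, Ccl3 and Ccl4 were among the 4 of 10 that were lower. Of the Fc and lectin receptors, 2 of 7 were higher and 3 lower, with the Fc receptor Fcgr3 at 200.1 and 241 against 979.6 and 793 CPM. The interferon response list was low at 186 and 266 CPM in sum. Dissociation stress genes summed to 5284 and 5477 CPM against 11251 and 10978 CPM in interstitial macrophages. Cxcr4, the receptor of CXCL12, stood at 28.5 and 20.5 CPM and Ackr3 at 1.11 and 2.67 CPM.

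The largest ratios involved members of these lists and other genes. Against interstitial macrophages the 10 with the largest ratios in favour of the Ear2 cells were S100a8, Ear1, Plet1, Ear10, Gal, Fpr2, Gda, Mcemp1, Spink2 and Ms4a8a. Gal, which encodes the neuropeptide galanin, stood at 133 and 73.7 CPM against 0.989 and 0.857 CPM, and Fpr2, a formyl peptide receptor, at 311 and 266 against 4.61 and 3.14 CPM. Gda (guanine deaminase) stood at 206 and 196 CPM and Mcemp1, a membrane protein of mast cells and myeloid cells, at 371 and 354 CPM. At the other end, the 10 lowest were the chemokines Ccl12, Ccl24, Ccl7 and Pf4, the receptor genes Fcrls and Cd163, and Crybb1, Ms4a7, Rapsn and Gas6. Ccl12 stood at 2.65 and 1.21 against 1069 and 875 CPM and Pf4 at 7.29 and 11.9 against 3874 and 2714 CPM. Against the Ear2-low leukocytes, Ear10, Ear1, Plet1, Ms4a8a, AW112010, Lpl, Perp, Fpr2, Capn1 and Fpr1 led the higher genes, with Fpr1, the second formyl peptide receptor, at 142 and 143 against 36.7 and 28.5 CPM. The lower genes were H2-Ab1, H2-Eb1, H2-Aa, Cd74, Plac8, Slfn5, Ifitm6, Jaml, Pla2g7 and Aif1. Ear1, Ear10, Plet1, Fpr2 and Ms4a8a stood on both lists of higher genes.

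At a reduced and equal depth, monocyte and alveolar transcripts were found together in part of the single cells. To compare cells at 1 depth each was thinned to 2000 UMIs (median 15801.5 and 15632 UMIs before). A Ccr2 UMI was then found in 65.0% and 56.1% of the Ear2 cells (0.222% and 0.209% of fibroblasts, which should lack it, at a median of 9040 and 7513 UMIs), and an Ear1 UMI in 72.9% and 74.8% (0.333% and 0.418% of fibroblasts). Without thinning the shares were 97.7% and 95.7% for Ccr2 and 99.6% and 99.8% for Ear1. Lpl was found in 42.7% and 52.0% of thinned cells (6.08% and 10.3% of fibroblasts) and Pparg in 19.2% and 17.1% (1.56% and 1.46%), and without thinning in 78.2% and 80.6% (16.6% and 25.5% of fibroblasts) and in 73.9% and 67.4% (5.96% and 4.73%). Ccr2 was found together with Ear1 in 265 of 532 and 201 of 485 thinned cells, with Lpl in 142 and 127, and with Pparg in 61 and 39. Thinning lowers these joint counts, so they do not give the number of cells that hold both transcripts. Without thinning nearly all cells held a Ccr2 UMI, so most cells with Ear1, Lpl or Pparg held Ccr2 as well. Ear1 shares transcript sequence with the gate gene Ear2, so its detection may partly follow the gate. Pparg was found in 17.6% (95% exact interval 13.8 to 22.1) of thinned cells with a Ccr2 UMI and in 22.0% (16.3 to 28.7) of those without one in the library labelled null, and in 14.3% (10.4 to 19.1) and 20.7% (15.4 to 26.7) in the library labelled control. Lpl was found in 41.0% (35.8 to 46.4) of cells with Ccr2 and 45.7% (38.4 to 53.1) without it, and in 46.7% (40.6 to 52.8) and 58.7% (51.8 to 65.4). All 4 shares were lower in the cells with a Ccr2 UMI, and the intervals of each pair overlapped, which does not show that the shares are alike. Ear1 did not follow them: it was found in 76.6% (71.8 to 81.0) of cells with Ccr2 and 66.1% (58.8 to 72.9) without it in the library labelled null, and in 73.9% (68.3 to 79.0) and 76.1% (69.7 to 81.6) in the library labelled control. Per 2000 UMIs, a cell held a median of 6 and 6 UMIs of the classical list and 3 and 4 of the alveolar list. Fn1, which fibroblasts also hold, gave 1798 of the 3205 CPM and 1630.0 of the 3188 CPM of the classical list. Ear1 gave 826 of the 1917 CPM and 778 of the 2037 CPM of the alveolar list. The interstitial and fetal list, which includes Apoe, gave a median of 5 and 11 UMIs, above the alveolar list in both libraries and more than 2-fold apart between them, and 0.564% and 1.24% of cells had none of the classical list. At this depth Siglecf was found in 0.940% and 0.206% of cells, Marco in 1.88% and 1.03% and Chil3 in 2.07% and 1.65%.

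The Ear2 cells were grouped without the gate's genes into 9 sub-clusters, which are given by number as a description, since the same cells chose the groups and the genes. The alveolar list was lowest in sub-cluster 4 (581 CPM in sum) and highest in sub-cluster 8 (4013 CPM), while the classical monocyte list was highest in sub-cluster 4 (4393 CPM) and next highest in sub-cluster 8 (3725 CPM, of which Fn1 gave 2443 and sets this rank). Ear1, a near-copy of the gate gene Ear2, gave 403 and 1507 CPM of the alveolar sums of sub-clusters 4 and 8. Sub-cluster 4 (63 cells) had 1008 CPM of Ccr2, 337 of Ly6c2, 481 of Hp, 168 of Plac8 and 1037 of Cd74, with 81.2 CPM of Lpl, 42.2 of Pparg and no Plet1 UMI. Sub-cluster 8 (101 cells) had 1108 CPM of Lpl, 540.5 of Plet1, 166 of Pparg, 203 of Chil3, 245 of Mrc1 and 1507 of Ear1, with 33.4 of Ly6c2, 522 of Ccr2 and more Fn1 than sub-cluster 4 (2443 against 1435 CPM). Lpl and Ly6c2 showed the same contrast in each library: Lpl was 78.0 and 84.1 CPM in sub-cluster 4 against 927 and 1337 CPM in sub-cluster 8, and Ly6c2 329.8 and 343 against 31.3 and 36.1 CPM. Sub-cluster 2 (204 cells) was led by Marco (69.3 CPM, 157 and 11.4 CPM by library), the metallothionein Mt2, the haem oxygenase Hmox1, Rgs1 and Fabp5 (1207 CPM), with 833 CPM of Lpl and 378 of Ccr2. The Marco UMIs of all Ear2 cells lay in 22 and 13 cells, and those of Chil3 in 21 and 14, so few cells set these 2 levels. Sub-cluster 1 (268 cells) was led by Hpgd, which degrades prostaglandins, Ms4a6b and Apoe (6185 CPM), and held 703 CPM of Ccr2. Sub-cluster 3 (172 cells) was led by Gal and the cyclin Ccnb2, and sub-cluster 6 (100 cells) by the histone gene Hist1h1b, Rrm2 and Plk1, with 804 CPM of Mki67. Sub-clusters 5, 7 and 9 (51, 23 and 35 cells) were led by genes of other lineages, Tcf21, Limch1 and Spon1 (mesenchyme), Cldn18, Lmo7 and Msln (epithelium and mesothelium), and Enpp2, Nrxn3 and Myh11 (Myh11 being a smooth muscle myosin). These 3 held 109 cells and 88 of the 90 doublet calls that Scrublet made among the Ear2 cells (7.89% and 9.90% of the cells of each library). Without them the mesenchymal list summed to 107 and 53.3 CPM rather than 577 and 533 CPM, while the classical list moved from 3205 and 3188 to 3264 and 3292 CPM and the alveolar list from 1917 and 2037 to 2013 and 2194 CPM.

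**Figure D3:**
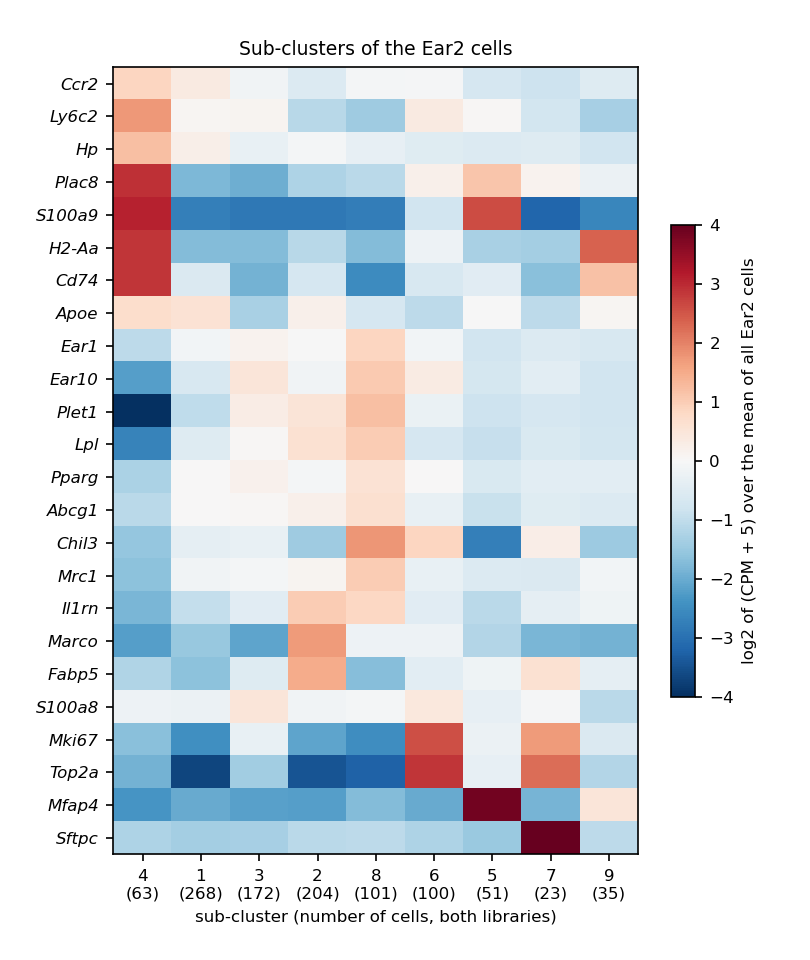
Level of 24 genes (rows) in the 9 sub-clusters of the Ear2 cells (columns, with the number of cells of both libraries), as the log2 of CPM + 5 over the mean of all Ear2 cells (colour, blue lower and red higher). Monocyte and class II genes are red in sub-cluster 4, Ear1, Plet1, Lpl, Pparg and Chil3 are red in sub-cluster 8, cell cycle genes in sub-cluster 6, and Mfap4 and Sftpc in sub-clusters 5 and 7, whose cells are mostly doublet calls in sub-cluster 5 (45 of 51) and in part in sub-cluster 7 (10 of 23). The H2-Aa and S100a9 rows rest on few cells. In sub-cluster 4 H2-Aa stood at 223 and 14.7 CPM and S100a9 at 579 and 187 CPM in the libraries labelled null and control.

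Ear2 cells with cell cycle transcripts were present in both libraries and more frequent in the library labelled null. After thinning to 2000 UMIs, 120 of 532 cells (22.6%, 95% exact interval 19.1 to 26.3) of the library labelled null and 55 of 485 (11.3%, 8.66 to 14.5) of the library labelled control held a UMI of Mki67 or Top2a, genes of dividing cells. The difference was 11.2 percentage points, with 4.57 to 17.7 between the far ends of the 2 intervals. At least 5 UMIs of the 52 genes of G2 and M phase were found in 30.5% (26.6 to 34.6) and 11.8% (9.02 to 15), a difference of 18.7 points (11.6 to 25.5). At least 5 UMIs of the 42 S phase genes were found in 9.96% and 5.98%, a difference of 3.98 points whose range reached below 0 (-0.923 to 8.79). At 2000 UMIs both measures of G2 and M phase were thus apart between the libraries beyond counting error, and the range of the S phase measure held 0. At 1000 UMIs the Mki67 or Top2a difference was 5.89 points with a range that held 0 (-0.113 to 11.8), and that of the G2 and M phase list was 12.0 points (5.84 to 18). In interstitial macrophages the Mki67 or Top2a share was 5.33% and 4.84% (difference 0.487 points, -6.52 to 7.63) and the G2 and M phase share 10.1% and 7.53% (2.53 points, -6.34 to 11.4). The summed levels of these macrophages differed more, with Mki67 at 50.4 and 23.7 CPM and Top2a at 38.6 and 11.7 CPM. In the Ear2 cells Top2a stood at 216 and 91.1 CPM. Fibroblasts held 24.4 and 27.6 CPM of Mki67 and 35.3 and 36.5 CPM of Top2a. In the Ear2-low leukocytes the Mki67 or Top2a share was 6.12% and 6.25% (3 cells in each library) and the G2 and M phase share 18.4% (8.76 to 32.0) and 8.33% (2.32 to 20.0), higher in the library labelled null with intervals that overlapped. In fibroblasts these shares were 3.63% and 3.41%, and 7.74% and 8.36%, and they stand as the background of free RNA and of their own cycling. The range for interstitial macrophages overlapped that of the Ear2 cells for Mki67 or Top2a and ended just under it for the G2 and M phase list (11.4 against 11.6 points), and the difference between the populations was not tested. Ciliated cells were not usable as a background, since 97.0% and 95.9% of them passed the G2 and M phase limit. SoupX removed 18.6% of the UMIs of the Ear2 cells in the library labelled null and 40.0% in the library labelled control, and the part of free RNA in the per-cell shares was not tested. On SoupX-adjusted sums Mki67 stood at 269 and 154 CPM, under 2-fold apart, beside 228 and 110 CPM on unadjusted sums, over 2-fold apart. Other transcripts were compared between cells with and without Mki67 or Top2a. In the library labelled null Ccr2 was found in 61.7% (52.4 to 70.4) of thinned cells with Mki67 or Top2a and 66.0% (61.2 to 70.6) of the rest, against 61.8% (47.7 to 74.6) and 55.3% (50.5 to 60.1) in the library labelled control. Ear1 was found in the library labelled null in 71.7% (62.7 to 79.5) and 73.3% (68.8 to 77.5). S100a8 was found there in 88.3% (81.2 to 93.5) of the cells with Mki67 or Top2a and 76.0% (71.5 to 80.0) of the rest, intervals that do not overlap, but in the library labelled control in 80.0% (67.0 to 89.6) and 79.5% (75.4 to 83.3). Lpl was found in 39.2% and 43.7% in the library labelled null and in 38.2% (25.4 to 52.3) and 53.7% (48.9 to 58.5) in the library labelled control.

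**Figure D4:**
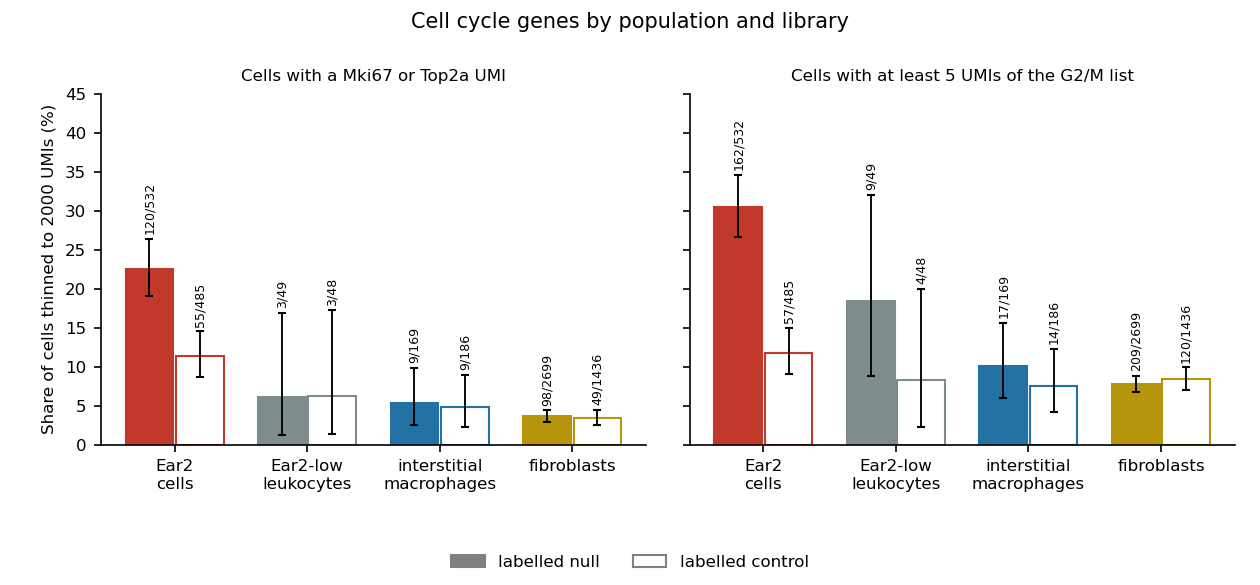
Share of cells thinned to 2000 UMIs (vertical axis, percent) with a UMI of Mki67 or Top2a (left) and with at least 5 UMIs of the G2 and M phase list (right), for 4 populations of each library, with exact Clopper-Pearson 95% intervals and the number of cells above each bar. The bar of the Ear2 cells of the library labelled null, at 22.6% and 30.5%, stands above that of the library labelled control, at 11.3% and 11.8%, with intervals that do not overlap.

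The share of Ear2 cells was compared between the libraries. They made up 5.87% (5.39 to 6.37) of the cells kept in the library labelled null and 6.51% (5.96 to 7.10) in the library labelled control, a difference of -0.644 points (-1.70 to 0.409). Of the Ear2 cells, interstitial macrophages and Ear2-low leukocytes together they were 70.7% (67.3 to 74.0) and 67.5% (63.9 to 70.9), a difference of 3.29 points (-3.52 to 10.1). Both ranges held 0, but with the cell filter and the gate both on raw counts (9157 and 8268 cells kept) the share among kept cells differed by -1.05 points, with a range that did not (-1.96 to -0.133). None of the 6 classical, 8 alveolar or 7 interstitial genes with at least 50 CPM in 1 library differed by 2-fold, beside 0.864% of all genes that were higher and 0.128% that were lower at this limit, so no result about these lists follows from the count. Apoe, at 2881 and 5262 CPM, was apart beyond counting error. Fibroblasts showed a like Apoe ratio between the libraries and interstitial macrophages a smaller one, so this contrast was not limited to the Ear2 cells. Ccr2 was 573 (557 to 589) and 487 (472 to 503) CPM, a log2 ratio of 0.23, but this order turned with SoupX-adjusted sums (692 and 773 CPM), as it did for Ear1 (999 and 1240 CPM) and Pparg (135 and 155 CPM). Lpl was 416 (403 to 429.7) and 628 (611 to 645) CPM, a log2 ratio of -0.59. It was also lower in the library labelled null in the Ear2-low leukocytes (74.9 and 167 CPM) and in interstitial macrophages. The cause of these Apoe and Lpl contrasts was not tested.

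Between the libraries, 27 of 3125 genes were at least 2-fold higher in the library labelled null (0.864%) and 4 at least 2-fold lower (0.128%), beside a median log2 ratio of 0.05 and a median absolute ratio of 0.11. Of 28 genes of G2 and M phase with at least 50 CPM in 1 library, 16 were higher, none was lower and the median log2 ratio was 1.03. Of 7 S phase genes, 1 (Rrm1) was higher and the median was 0.42. The 10 genes chosen by size were Sftpc, Ramp1, Kif15, Ccnb2, Stmn1, Ube2c, Cdca3, Racgap1, Cenpa and Ccna2. Of the 10, 8 act in division or its spindle, such as Ccnb2 (cyclin B2, 83.9 and 29.3 CPM) and Stmn1 (the microtubule regulator stathmin, 250.1 and 93.1 CPM). Several of them had a like ratio in interstitial macrophages, with a log2 ratio between the libraries of 1.5 for Ube2c (1.40 in the Ear2 cells), 1.41 for Cdca3 (1.30), 1.33 for Racgap1 (1.29) and 1.28 for Stmn1 (1.42), while that of Cenpa was 0.03 (1.28). Without the 165 and 62 cells that passed the S or G2 and M phase limit, 6 genes in place of 27 were higher. This removal acted on the level as well as on the ratio: of the 27 genes, 14 were still past 2-fold and 13 were not, and 9 of the 14, such as Ccnb2 (15.1 and 2.52 CPM, log2 ratio 2.37), fell under the minimum of 50 CPM. The smaller count therefore does not show that their difference was gone. Sftpc, which encodes surfactant protein C of alveolar epithelium, was at 312 and 64.8 CPM because 1 cell held 2363 of 2823 UMIs, and without the top cell of each library it was at 51.0 and 57.0 CPM.

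The differences at Ramp1 and BC018473 did not rest on single cells. Ramp1 (chr1:91179822-91225196), a subunit of the receptor of the neuropeptide CGRP, stood at 58.9 and 15.4 CPM, a log2 ratio of 1.90, with at most 5 and 4 UMIs in 1 cell. A Ramp1 UMI was found in 11.8% (9.22 to 14.9) and 4.33% (2.70 to 6.54) of cells thinned to 2000 UMIs, beside 4.15% and 3.55% of fibroblasts, and without thinning in 60.7% and 19.8%, beside 10.6% and 8.69%. Fibroblasts held 31.2 and 25 CPM, more than the Ear2 cells of the library labelled control, whose thinned share was within counting error of that of fibroblasts. BC018473 (chr11:116752167-116759373, annotated as an antisense transcript) stood at 29.9 and 93.7 CPM, a log2 ratio of -1.63, with a UMI in 4.89% (3.22 to 7.08) and 20.8% (17.3 to 24.7) of thinned cells, beside 0.111% and 0.418% of fibroblasts, and in 19.7% and 66.6% without thinning. The log2 ratio of BC018473 was -1.39 over all kept cells, which include the Ear2 cells, and -0.94 in fibroblasts, at only 0.997 and 2.38 CPM. Without thinning its UMIs were found in 20% and 72.9% of Ear2-low leukocytes and 14.7% and 34.4% of interstitial macrophages. The difference was thus not limited to the Ear2 cells. Of the 4 lower genes, Scgb1a1, a secretory epithelial gene, had the lowest ratio (10.8 and 71.2 CPM, log2 ratio -2.66), with 545 of its 587 UMIs in the library labelled control in 1 cell. Beside BC018473 the others were Mt2, a metal-binding metallothionein (62.0 and 149 CPM, log2 ratio -1.26), and Lepr, the leptin receptor (44.8 and 103 CPM, -1.19). The libraries also filled the sub-clusters unequally: sub-cluster 2, which Mt2 helped to lead, held 83 and 121 cells (15.6% and 24.9% of the Ear2 cells), and sub-cluster 6, with the most Mki67, held 73 and 27 (13.7% and 5.57%). With 1 library per label, genotype, sex, embryo and library cannot be told apart for any of these genes.

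**Figure D5:**
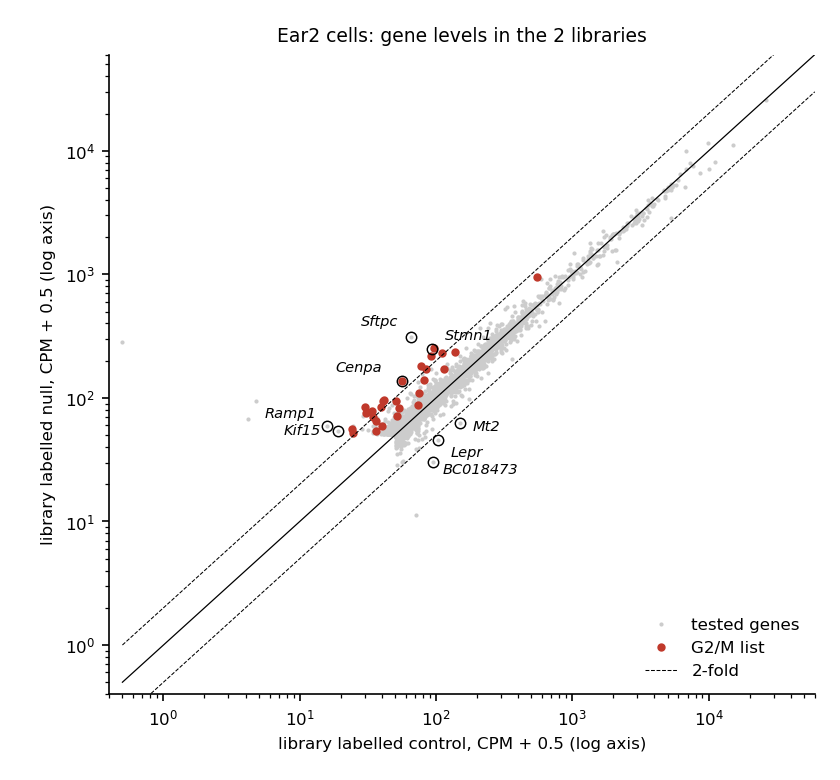
Level of each of 3125 genes in the Ear2 cells of the library labelled control (horizontal) and of the library labelled null (vertical), both as CPM + 0.5 on logarithmic axes, with the line of equal levels and the 2-fold lines. Most genes lie near the line, 16 of the 28 genes of G2 and M phase (red) lie above the upper 2-fold line, and the named genes Ramp1 and BC018473 lie beyond it on opposite sides. Xist is the point at the far left, where the control value is 0, and Sftpc owes its place to 1 cell.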

How the data were processed

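Whole-lung suspensions were sequenced on the 10x 3′ v3 platform. The submitters' processing notes name Cell Ranger 3.1, Seurat 3.2.2 and mm10. The authors deposited UMI counts per gene and called cell, and expected counts, which are the same UMIs after SoupX removed an estimated share of free RNA (18.5% in the library labelled null, 40.0% in the library labelled control). SoupX estimated that share from listed genes that include Lyz2, Fos, Dcn and the haemoglobins. The libraries held 103857395 and 85648519 UMIs in 9838 and 8845 barcodes, of which 9067 and 7448 were kept.

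Samples were grouped by their labels. The gate was applied to the expected counts, and levels are summed raw counts in CPM, with exact Poisson 95% intervals (Clopper-Pearson for shares). UMIs at the 3′ end count transcripts irrespective of gene length. Log2 ratios add 0.5 CPM. Ratios of at least 2-fold were called where 1 side reached 50 CPM. Named genes were all members of the main identity and Ear lists, the 4 most abundant members of other lists, the 10 largest ratios in each direction that SoupX-adjusted values did not turn (haemoglobin, mitochondrial, ribosomal, sex-linked and gate genes left out), and the 5 leading genes of each sub-cluster. Kif15, Stmn1 and the other library genes follow that rule, while members named for a low level, and the values of single cells, were chosen after they had been seen. Sub-clusters used analytic Pearson residuals (theta of 100) per library, 1000 variable genes, 10 components, 15 neighbours and Leiden resolution 0.5. Doublets were called with Scrublet (expected rate 8%) and kept. Python 3.11.15, NumPy 2.4.6, pandas 2.3.3, SciPy 1.17.1, scanpy 1.11.5, igraph 0.11.9 and matplotlib 3.10.9 were used, and the scripts were tested on simulated data. The cells and the gene lists were chosen with earlier results of these data known. The alternatives were another Ear2 minimum, a gate on raw counts, other minimum levels, SoupX-adjusted sums, other thinning depths, removal of doublet calls, and other clustering settings, and 2 were added after seeing the data. The sorted libraries were used only for a count of gated cells and for their Ptprc level.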

Additional observations from a re-analysis of the deposited data

How the results depend on the processing

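No paired analysis was possible because each label had 1 library and the labels give no replicate numbers. Without replicates, depth limits only the counting error. The share of Ear2 cells in the libraries labelled null and control was 4.34% and 5.38% with the cell filter and the gate on raw counts, where the range of the difference (-1.05 points, -1.96 to -0.133) no longer held 0, and 5.35% and 5.68% without sub-clusters 5, 7 and 9, an alternative chosen after seeing the data. The number of alveolar genes higher than in interstitial macrophages went from 5 of 5 to 8 of 8 with SoupX-adjusted sums and to 9 of 11 with a minimum of 10 CPM. That of classical monocyte genes stayed at 5 of 6 with SoupX-adjusted sums and went to 5 of 9 with a minimum of 10 CPM. The shares over all genes under these settings were not computed, so these counts are descriptions. The Mki67 or Top2a share in the library labelled null was 15.8% when thinned to 1000 UMIs against 9.90% in the library labelled control, where the range of the difference (5.89 points, -0.113 to 11.8) held 0, and without thinning it was 45.1% and 35.1% in the 2 libraries. The G2 and M phase share was 20.5% and 8.45% at 1000 UMIs, 98.7% and 98.4% without thinning, where the difference shrank to 0.334 points (-1.98 to 2.69), and 50.6% and 32.6% with a limit of 3 UMIs. The number of genes higher in the library labelled null went from 27 to 174 with SoupX-adjusted sums, 91 with a minimum of 10 CPM and 6 without cells past the phase limits (also chosen after seeing the data), and the number lower from 4 to 16 with SoupX-adjusted sums and 38 with 10 CPM. SoupX removed unequal shares in the 2 libraries. The number of sub-clusters was 5 at resolution 0.3 and 15 at 1.0. The log2 ratio of Sftpc turned to -0.12 without doublet calls and -0.11 without sub-clusters 5, 7 and 9. Cdca3, Ccna2 and Lepr missed the 2-fold limit with SoupX-adjusted sums, and Racgap1 and Cenpa without cells past the phase limits. The other causes were not tested. Of 171 values of main results under these alternatives, 146 stayed within their limits, 22 moved, and of the differences 2 lost and 1 gained a range without 0.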

Other observations

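The same cell filter and gate on raw counts were applied to all 6 libraries. They kept 397 of 9157 cells (4.34%) and 445 of 8268 (5.38%) in the whole-lung libraries labelled null and control. In the libraries sorted for reporter cells they kept 0 of 12726 at E13.5, which allows a share of up to 0.0236% (3 counts), and 0 of 11649 at E15.5, which allows up to 0.0258% (3 counts). They kept 3 of 9542 cells (0.0314%, exact interval 0.00648 to 0.0919) at E18.5 and 1 of 8451 (0.0118%, 0.000300 to 0.0659) at P8. A single cell also carried much of a gene of another lineage in the gated population: 1 cell of the library labelled null held 432 of 842 UMIs of the haemoglobin gene Hbb-bs.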
